A study of Mus musculus with 9 samples.

Results

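The regions described here lie at the loci of Satb1, Bcl11b, Gata3, Themis and Ets1, genes that establish or maintain T cell identity. They were measured by ATAC-seq, an assay in which the Tn5 transposase cuts and tags open chromatin, in tumor-specific CD8 T cells from the lymph nodes that drain a melanoma. A region was a stretch where peaks of the 9 deposited peak lists joined. It belonged to a locus when it overlapped the gene's body on mm10, or when an end of that gene was the nearest protein-coding gene end within 100 kb. By this rule 109 of 62963 regions were members, 74 inside the 5 gene bodies and 35 outside, and none was shared between member genes.

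All libraries came from P14 cells, CD8 T cells with a transgenic receptor for an epitope of the lymphocytic choriomeningitis virus (LCMV) glycoprotein. The strain was C57BL/6 and the cells were labelled WT. The donors were TCF-1-GFP reporter P14 mice, and only naive CD44- GFP+ cells, which express the reporter for the stem-like factor TCF-1, were transferred, 500000 per host. Hosts had received B16.F10 melanoma cells expressing the LCMV glycoprotein (B16.Gp) under the skin 8 days earlier. CD45.1+CD44+CD8 T cells were sorted from the tumor-draining nodes 4, 8 or 21 days after transfer, and 50000 cells went into each library. There were 3 libraries and so 3 peak lists per day. No group lacked a tumor or the transgenic receptor. The ages of the mice are not given in the labels. Nor do they state that libraries were taken from different animals, so p-values below measure at most the spread between lists, which may be technical. Where that spread was very small, an assumed lower limit on the variance took its place, as described under the processing.

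In the thymus, GATA3 and TCF-1 act downstream of Notch signals to start the T cell program, and BCL11B then closes off other fates and completes commitment. SATB1 is a nuclear organizer that anchors chromatin loops and is needed for normal thymocyte selection. ETS1 binds the ETS motif, often beside RUNX factors, at many T cell enhancers. THEMIS is not a DNA-binding protein: it associates with GRB2 and the phosphatase SHP-1 close to the T cell receptor and tunes signals during selection. In mature CD8 T cells these genes stay in use, and an open region at such a locus marks a candidate regulatory site, not the amount of transcript.

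Promoter windows were printed to set annotated start sites beside the regions called near them. The RefSeq promoter sequences used (GRCm38.p6) include windows for 4 of the 5 members, from 250 bases before to 50 bases after a start site. Of the 5 Satb1 windows, the one shown lies inside a region called in all 9 lists, chr17:51826539-51826838 on the minus strand. The Bcl11b window is chr12:108003365-108003664 on the minus strand, the Gata3 window chr2:9878551-9878850 on the minus strand and the first Themis window chr10:28668110-28668409 on the plus strand. Capitals mark matches to any of 8 motifs.
Satb1: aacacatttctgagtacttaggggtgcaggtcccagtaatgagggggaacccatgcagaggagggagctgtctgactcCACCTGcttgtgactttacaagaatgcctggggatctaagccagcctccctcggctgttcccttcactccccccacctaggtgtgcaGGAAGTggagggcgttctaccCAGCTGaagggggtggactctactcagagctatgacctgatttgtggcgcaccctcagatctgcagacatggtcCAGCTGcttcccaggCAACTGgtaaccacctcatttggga
Bcl11b: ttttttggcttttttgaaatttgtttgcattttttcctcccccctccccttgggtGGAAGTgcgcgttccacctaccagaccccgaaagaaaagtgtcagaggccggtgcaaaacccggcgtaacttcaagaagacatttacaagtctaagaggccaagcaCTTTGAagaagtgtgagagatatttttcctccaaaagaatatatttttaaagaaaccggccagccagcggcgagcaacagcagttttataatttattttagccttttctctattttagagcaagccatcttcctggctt
Gata3: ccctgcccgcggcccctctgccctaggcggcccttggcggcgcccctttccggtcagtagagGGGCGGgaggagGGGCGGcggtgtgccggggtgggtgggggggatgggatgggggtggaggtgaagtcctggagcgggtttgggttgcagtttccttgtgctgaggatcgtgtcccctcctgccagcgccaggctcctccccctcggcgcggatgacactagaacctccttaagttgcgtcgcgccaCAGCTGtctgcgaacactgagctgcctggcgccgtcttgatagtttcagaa
Themis: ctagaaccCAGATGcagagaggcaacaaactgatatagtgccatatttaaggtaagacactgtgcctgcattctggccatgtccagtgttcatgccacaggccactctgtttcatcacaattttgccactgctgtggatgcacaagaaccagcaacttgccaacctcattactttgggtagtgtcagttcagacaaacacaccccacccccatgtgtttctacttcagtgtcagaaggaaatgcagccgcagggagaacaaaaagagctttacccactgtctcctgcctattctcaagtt

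The motifs searched on both strands, with the share of all 32851 promoter windows that hold each, were GATAA for GATA factors (25.4%), GGAAGT for ETS (23.8%), TGTGGT for RUNX (16.8%) and CTTTGA for TCF/LEF (16%). The others were CAGNTG for E proteins (51.4%), TGANTCA for AP-1 (7.81%), GGGCGG for SP/KLF (35.7%) and CCAAT for NFY (37.4%). The Satb1 window held 4 E protein matches and 1 ETS match. In the Bcl11b window there were 1 ETS match and 1 TCF/LEF match. The Gata3 window held 2 SP/KLF matches upstream and 1 E protein match at the start site, and the Themis window held 1 E protein match. None of these 4 windows held a GATA, RUNX, AP-1 or NFY match. A match is only a stretch of letters, and its presence says nothing of a factor's binding.

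Peaks lay differently against these 4 start sites. At Themis the strongest point of the peak fell between 9 and 127 bases after the start site in the 9 lists, with a median of 53. At the Satb1 window it fell 62 to 112 bases before the start, with a median offset of -94. At Bcl11b the region shared only 2 bases with the printed window, and its summits had offsets of -750 to -715 bases from that annotated start, far outside the window. The Gata3 window lay wholly within a region called in 2 of 3 day 4 lists and in every later list. Of the other Satb1 windows, the one at the gene's outermost start, chr17:51833241-51833540, also lay in a region called in all 9 lists. The window chr17:51832598-51832897 lay in the same region. The 2 windows that begin at 51812005 and 51812135 met no region in any list.

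Peak lists differed in length by day, and this bears on every comparison with day 4. From 19499 to 22250 peaks on the autosomes and X were listed per library on day 4, 47513 to 50835 on day 8 and 46492 to 51671 on day 21. The authors' fold enrichment, taken over the 15109 regions present in every list, had a median of 5.70 to 5.75 on day 4, 8.93 to 9.01 on day 8 and 8.65 to 8.86 on day 21. Read totals are not in the lists, so the day and the yield of peaks cannot be told apart. The CD8 T cell label was checked on 8 marker genes. Of the 6 with a promoter window, 3 had it called in every day 4 list, 6 in every day 8 list and 5 in every day 21 list. For genes of B cells (3 with a window), endothelial and stromal cells (2), natural killer and innate lymphoid cells (3), and CD4 and regulatory T cells (2), no promoter was called in all 3 lists of any day. The Mitf promoter, of 3 melanoma genes with a window, was called in all 9 lists, and those of Itgam and Cebpa, of 3 myeloid genes, in every later list. Ms4a1, Lyz2, Tyr and Foxp3 had no region.

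More regions were called at all 5 loci on days 8 and 21 than on day 4. Over the 109 members, 26, 26 and 32 regions were called in the day 4 lists, 81, 79 and 87 in the day 8 lists and 78, 79 and 83 in the day 21 lists. As a share of the regions called in a list, the members made up 0.147% ± 0.00701 (SD, n = 3) on day 4, 0.175% ± 0.00363 on day 8 and 0.172% ± 0.00595 on day 21. Of all tested loci, 80.6% had more regions in every day 8 list than in any day 4 list, and 78.6% in every day 21 list, so an increase in number alone was the rule. In bulk libraries, opening in more cells and wider opening per cell cannot be told apart.

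Bcl11b (chr12:107910403-108004145, GeneID 58208) had 27 regions, 19 of them in its body. The day 4 lists held 5, 3 and 6 of them, the day 8 lists 22, 21 and 22, and the day 21 lists 19, 18 and 19. No day 4 list came near a later list, and the day 21 lists all lay below the day 8 lists.

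Themis (chr10:28668360-28883820, GeneID 210757) had 18 regions, 17 in a body of 215.461 kb, and was the sparsest locus on day 4. Its lists held 1, 2 and 2 regions on day 4, 12, 12 and 13 on day 8, and 11, 14 and 13 on day 21. The lists of days 8 and 21 overlapped, and all lay far above day 4.

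Ets1 (chr9:32636241-32757820, GeneID 23871) had the most regions, 32, of which 22 lay in the gene. There were 8, 10 and 10 called on day 4, 25, 24 and 25 on day 8, and 24, 23 and 24 on day 21. Its later lists shared the value 24.

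Satb1 (chr17:51736187-51833290, GeneID 20230) had 24 regions, 11 in its body and 13 outside. The day 4 lists held 8, 6 and 8, the day 8 lists 14, 15 and 19, and the day 21 lists 16, 17 and 19. Its day 8 lists spread more widely than those of any other member (SD 2.65).

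Gata3 (chr2:9857078-9887953, GeneID 14462) had only 8 regions under the 100 kb rule, and most of these were called already on day 4. Its lists held 4, 5 and 6 on day 4, and 8, 7 and 8 on both day 8 and day 21. On average 62.5% of its regions were called per day 4 list, against 9.26% at Themis, 17.3% at Bcl11b, 29.2% at Ets1 and 30.6% at Satb1. These shares leave out regions beyond 100 kb, of which Gata3 had 29, with 6 ± 1 (mean ± SD) called on day 4.

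**Figure D1:**
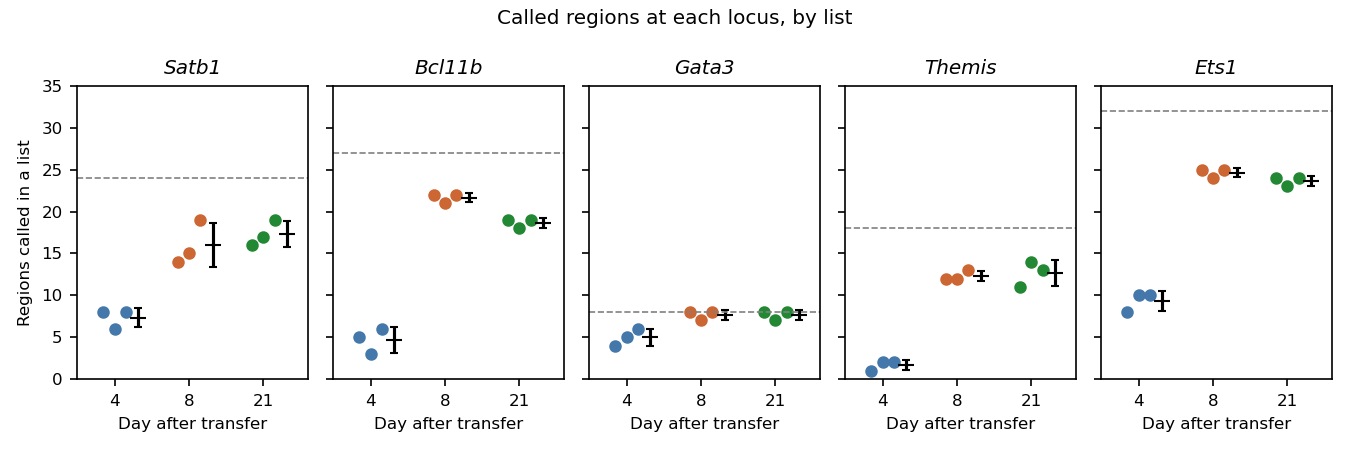
Number of regions called in each peak list (vertical axis) by day after transfer (horizontal axis) at the 5 loci; each point is 1 list, bars show the mean ± SD of 3 lists, and the dashed line is the number of regions of the locus. All later lists lie above all day 4 lists at each locus, from 7 or 8 against 4 to 6 at Gata3 to 11 to 14 against 1 or 2 at Themis.

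Set per length, the order of the loci changed with time. On day 4 the Gata3 body held 11.9 ± 1.87 called regions per 100 kb (mean ± SD, 3 lists), well above Ets1 (4.39 ± 0.950), Bcl11b (4.27 ± 1.07) and Satb1 (3.78 ± 0.595), which did not differ beyond their spread. Themis, with 0.774 ± 0.268, was lowest. On day 8 Bcl11b (16.4 ± 0.616) and Gata3 (16.2 with no spread) stood together at the top, then Ets1 (13.4 ± 0.475), Satb1 (7.55 ± 1.57) and Themis (5.57 ± 0.464). All 5 regions in the Gata3 body were called in every list of days 8 and 21, so 16.2 was the highest value Gata3 could reach. On day 21 Gata3 (16.2 with no spread) was ahead of Bcl11b (15.3 ± 0.616), followed as on day 8 by Ets1 (12.6 ± 0.475), Satb1 (7.90 ± 0.595) and Themis (5.88 ± 0.709).

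To compare loci beyond the general increase, the number of regions per locus was divided by the length of its list and fitted with limma over all 7834 genes that had at least 3 regions. Before the log, 0.5 was added to each number of regions. A log2 difference of 0 then means that this sum grew as much as the lists did. A locus with few regions that grew in proportion to the lists falls below 0. The median over all genes was -0.14 between day 4 and day 8. Between day 4 and day 8, 3 of the 5 loci passed the threshold (adjusted p of 0.05, Benjamini-Hochberg over all genes), 2 higher and 1 lower. Over all genes 40.1% passed, 15.6% higher and 24.5% lower, so a call was common and the size of the difference carries more than the call. Themis had the largest difference of the 5, 1.3 ± 0.18 (log2 ± SE, adjusted p = 0.000675). Bcl11b followed with 0.85 ± 0.16 (adjusted p = 0.00256). Ets1 was at 0.06 ± 0.09 (adjusted p = 0.636) and Satb1 at -0.23 ± 0.11 (adjusted p = 0.134), which became -0.32 (adjusted p = 0.0490) without day 4 replicate 2. Gata3 was lower relative to list length, at -0.72 ± 0.13 (adjusted p = 0.00182), although every day 8 list held more Gata3 regions than any day 4 list.

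The room left on day 4 sets a bound on these values. Had every region of a locus been called on day 8, Gata3 would have reached -0.66. Gata3 could thus only come out below 0, and its call as lower was set by its day 4 counts. The same bound was 0.35 for Satb1, 0.43 for Ets1, 1.16 for Bcl11b and 1.83 for Themis. Marker loci of the T cells and of other cell types moved on this scale too, where 15.6% of all loci were higher and 24.5% lower. Of the 7 CD8 T cell markers tested, 1 was higher and 3 lower, with Cd3e, a receptor subunit, highest at 0.57 ± 0.18 (adjusted p = 0.0288) and Cd8a, the CD8 coreceptor chain, lowest at -0.85 ± 0.13 (adjusted p = 0.000899). Of the markers of other types tested, 3 of 5 endothelial and stromal and 2 of 2 B cell loci were higher and 2 of 3 melanoma loci lower. None of 2 myeloid loci passed, 1 of 2 CD4 and regulatory T cell loci was higher, and of 2 natural killer and innate lymphoid loci 1 was higher and 1 lower. The highest endothelial and stromal value was at Kdr, an endothelial growth factor receptor, with 2.06 ± 0.20 (adjusted p = 0.000101), and among the B cell markers at Ebf1, a B lineage factor, with 1.87 ± 0.24 (adjusted p = 0.000446). Zbtb7b, which directs the CD4 lineage, and Kit, a growth factor receptor, were both at 1.53 (adjusted p = 0.00983 and 0.0107). Klrb1c, which encodes NK1.1, was at -0.78 ± 0.13 (adjusted p = 0.00152), and Pmel, a melanosome gene with 3 of 3 regions called in every list, at -1.3 ± 0.17 (adjusted p = 0.000376). Summed over each marker list, the 5 B cell genes had 0 to 1 called regions in the day 4 lists, 10 to 11 on day 8 and 9 to 13 on day 21. The 5 endothelial and stromal genes had 2 to 4, 19 to 24 and 19 to 21, the 5 myeloid genes 2 to 4, 9 to 11 and 11 to 12, and the 5 melanoma genes 4 to 6, 8 to 9 and 10 to 12. For CD4 and regulatory T cells the sums over 3 genes were 1 to 2, 7 to 8 and 6, for the 3 natural killer and innate lymphoid genes 5 to 6, 12 to 13 and 12 to 14, and for the 8 CD8 T cell genes 21 to 28, 55 to 58 and 56 to 64. Their part in the differences at Themis and Bcl11b was not tested.

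None of these calls remained among the stronger peaks. When each list was reduced to its strongest 19499 peaks, the number in the shortest list, no member passed. Themis then held 1 to 2 regions in the lists of each day, Bcl11b 3 to 5 on day 4 and 4 to 6 on day 8, and Ets1 8 to 10 and 8 to 9. The differences were -0.33 for Themis, 0.19 for Bcl11b, -0.08 for Ets1, -0.43 for Satb1 and -0.43 for Gata3, and 0.0255% of all loci were called higher and 0.115% lower. Requiring peaks to cover at least 50% of a region kept Bcl11b (0.74, adjusted p = 0.00192) and Themis (0.68, adjusted p = 0.0142) above, moved Satb1 from below 0 to 0.44 (adjusted p = 0.0197), Gata3 from lower to 0.20 (adjusted p = 0.391) and Ets1 to 0.93 (adjusted p = 0.0894). Over all loci 13.4% were then called higher and 31.1% lower.

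**Figure D2:**
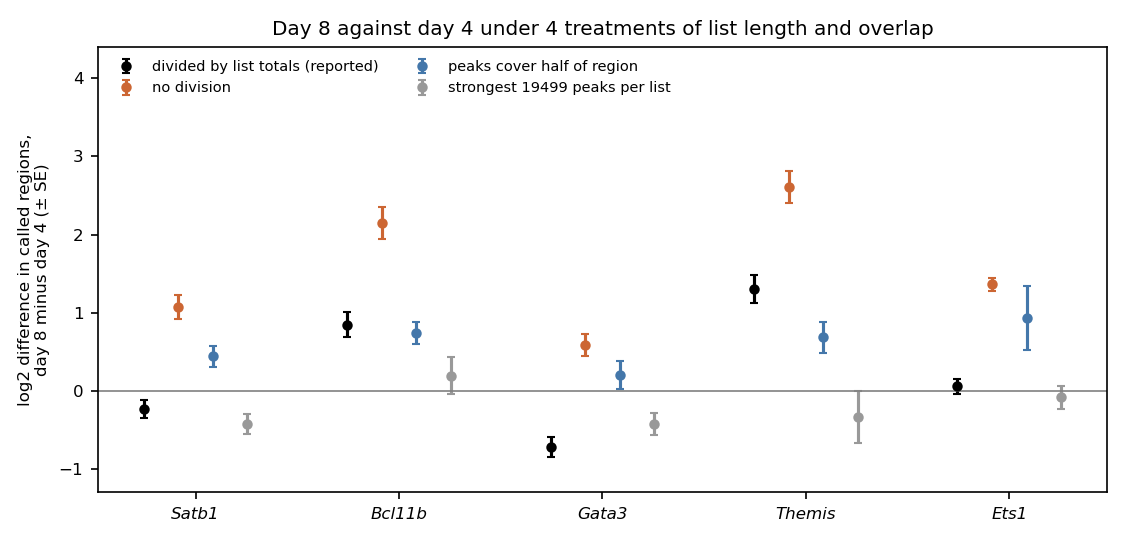
Log2 difference in the number of called regions, day 8 minus day 4 (vertical axis, points with ± SE from limma), for the 5 loci (horizontal axis) under 4 treatments of the lists. Bcl11b is above 0 under all 4, and Themis, Satb1, Gata3 and Ets1 each change side under at least 1. With the strongest peaks no locus passed the threshold. Bcl11b (0.19 ± 0.23), Themis (-0.33 ± 0.33) and Ets1 (-0.08 ± 0.15) then had an SE near or above the size of the difference, so their side of 0 is uncertain.

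Region by region, 28 of the 109 members (25.7%) were called in 3 of 3 day 8 lists and 0 of 3 day 4 lists, here termed gained, and 0 were lost. The share over all regions was also 25.7% gained, with 0.00953% lost. Bcl11b gained 11 of its 27 regions, Ets1 8 of 32, Satb1 and Themis 4 each, and Gata3 1. Among the strongest peaks no member was gained (1.37% of all regions were) and 1 Bcl11b region was lost (0.631% of all). All 38 member regions called in any day 4 list were called again later, and over all regions, 0.706% of those called on day 4 were not.

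Of the 109 members, 19 were constant, 20 were late, 2 were called on day 8 alone and the other 68 had mixed calls. The constant set, called in all 9 lists, held 19 regions (24.0% of all regions were of this kind): 6 each at Satb1 and Ets1, 3 each at Bcl11b and Gata3, and 1 at Themis. A late set of 20, absent from every day 4 list and present in every later list (19.2% of all), held 6 each at Bcl11b and Ets1, 4 at Themis, 3 at Satb1 and 1 at Gata3. Constant members were wider, with a median of 672 bases against 479 for late ones, and over the whole series the medians were 951 and 502. Their median fold enrichment on day 8 was 6.52, against 4.20 for the late members. Of the mixed members, 17 were seen in 1 list only, 6 each at Satb1 and Ets1, 3 at Themis and 2 at Bcl11b (15.9% of all regions).

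At Themis the constant region was the start site itself, chr10:28668011-28668741. Its fold enrichment was 7.36, 6.83 and 6.39 on day 4, 9.66, 10.7 and 10.2 on day 8, and 10.6, 9.97 and 9.08 on day 21. On day 4 this was nearly all that was called in the gene. The only other calls were at chr10:28815867-28816565 in replicate 2 and chr10:28844196-28844488 in replicate 3, both intragenic and both called in every later list. The 4 late regions, all in the gene body, were modest, with mean day 8 folds of 4.75 to 5.45.

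Ets1 carried a distal region with the highest day 8 fold among the constant members. It lay at chr9:32815404-32815888, 57.6 kb beyond the gene's higher-coordinate end and within the long noncoding gene Gm3331. Fold enrichment there was 4.09, 5.25 and 4.57 on day 4, 11.7, 10.4 and 10.9 on day 8, and 10.9, 10.1 and 12.7 on day 21. Folds were higher in later lists throughout the series. Over the 15109 regions present in every list the median was 5.70 to 5.75 on day 4, 8.93 to 9.01 on day 8 and 8.65 to 8.86 on day 21. On the other side of Ets1, 4 of the 6 late regions formed a row between 15.4 and 46.0 kb below the gene, and the other 2 lay in the body. That stretch also held 3 constant regions, 19.7, 41.4 and 43.9 kb below the gene.

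At Bcl11b the region at the gene's higher-coordinate end, chr12:108003663-108004380, was called in all lists, with folds of 5.61, 6.56 and 5.19 on day 4, 6.73, 7.54 and 7.56 on day 8, and 7.30, 8.27 and 7.05 on day 21. Of the 11 gained regions 7 lay in the gene body. A distal region 76.8 kb below the gene, chr12:107832735-107833582, was called in 2 of 3 day 4 lists at folds of 4.50 and 3.72, and in every later list at 7.21 to 8.58. It had the highest mean day 8 fold of the locus.

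Satb1 had its constant regions on both sides of the gene's start. The intragenic start shown above, chr17:51826321-51826915, had folds of 4.46, 5.11 and 4.15 on day 4 and 6.25 to 8.95 later, and 3 more lay 43.0 kb or more beyond the gene's higher-coordinate end. In that flank 5 Satb1 regions fell within the long noncoding gene Gm20098. A late region 21.8 kb beyond the gene, chr17:51855121-51855655, had the highest mean day 8 fold of the 20 late members, 5.65 ± 0.614, and 7.76 ± 1.20 on day 21.

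Gata3 had its strongest region outside the gene. This distal region, chr2:9801322-9802032, lay 55.0 kb below the gene and reached folds of 9.09, 8.91 and 9.21 on day 8 and 9.67, 9.04 and 9.32 on day 21. It was called in 2 of 3 day 4 lists, at 4.90 and 4.11. The region over the printed promoter, chr2:9878311-9878966, was weak by comparison, with folds of 2.56 to 4.45 wherever it was called. A neighbor 1.02 kb beyond the higher-coordinate end, chr2:9888969-9889773, lay in the long noncoding gene 9230102O04Rik.

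**Figure D3:**
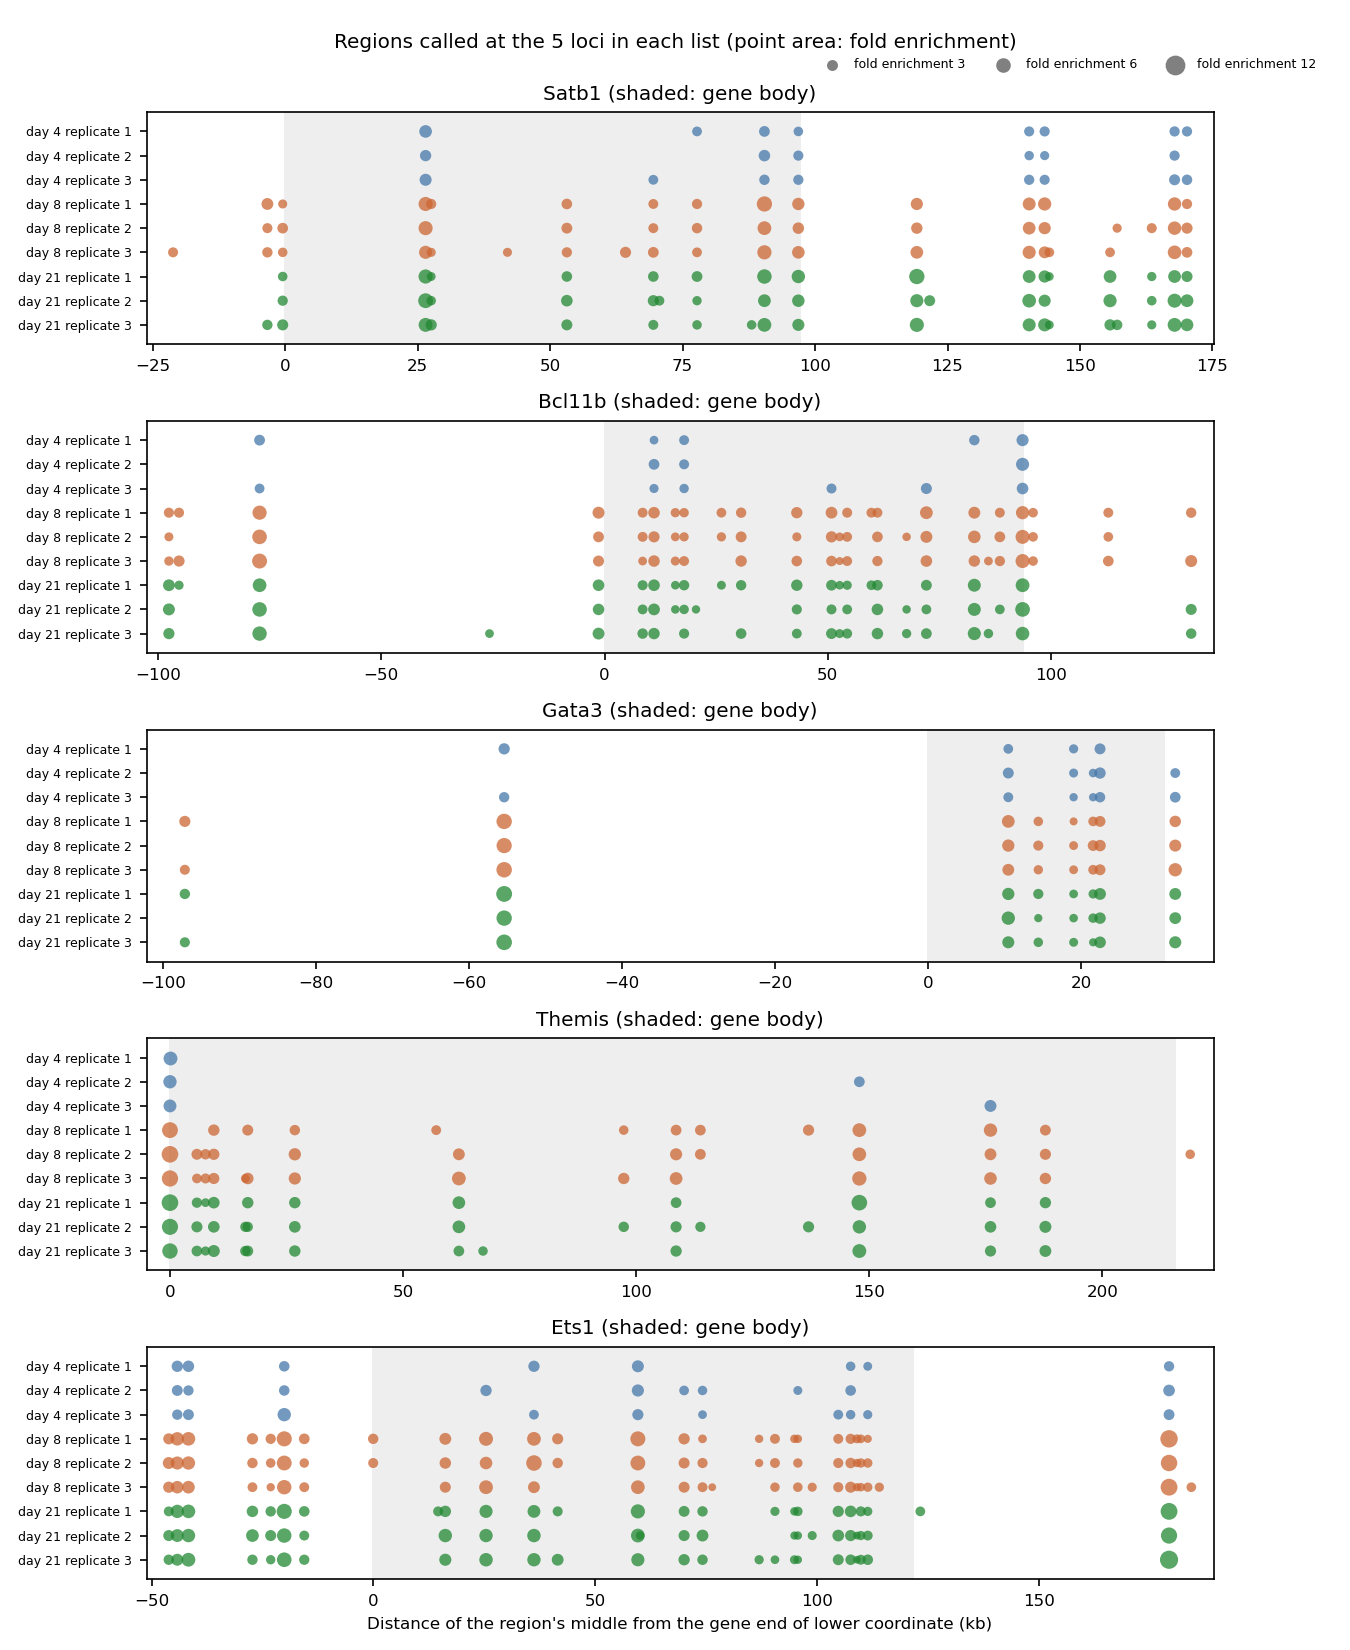
Map of the 109 regions; the horizontal axis is the distance in kb of a region's middle from the gene end of lower coordinate, each row is 1 peak list, point area is the fold enrichment of the strongest peak, and shading marks the gene body. Day 4 rows at Themis hold 1 or 2 points against 11 to 14 in later rows. The Ets1 point 57.6 kb to the right of the shaded body has folds of 4.09 to 5.25 on day 4 and 10.1 to 12.7 later. Folds of different lists are not on a common scale and were higher in later lists throughout the series.

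Fold enrichment was higher in later lists throughout the series, so the constant regions were also ranked within each list, as percentiles among the 15109 regions called in all 9. Over the 19 members the median of the mean percentile was 21.8 on day 4, 16.9 on day 8 and 19.7 on day 21, and 2 of 19 stood above 50 on each day. Constant regions of these loci were thus mostly in the weaker part of the shared set. Between day 4 and day 8, 2 of the 19 ranked higher with no overlap between lists (17.5% of all 15109 did) and 3 ranked lower (23.6% did).

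The distal Ets1 region moved up furthest. Its percentile was 10.6, 38.3 and 22.9 on day 4, 83.3, 70.0 and 76.8 on day 8, and 78.7, 67.5 and 94.5 on day 21. A Satb1 region 43.0 kb beyond the gene, chr17:51876289-51876903, went from 7.53, 1.91 and 11.9 to 15.6, 14.1 and 18.6, and then 15.2, 24.8 and 18.9. The Themis start site kept a high rank, 64.1 to 78.2 on day 4, 59.7 to 73.1 on day 8 and 57.0 to 75.7 on day 21, and its days overlapped.

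The 3 regions that ranked lower were at Bcl11b and Gata3. The Bcl11b region at the gene's higher-coordinate end had percentiles of 46.8, 66.0 and 38.3 on day 4 and 19, 29.2 and 29.9 on day 8, although its fold was higher in each day 8 list than in each day 4 list. Its day 21 values of 27.4, 41.0 and 25.7 overlapped those of day 4. An intragenic Bcl11b region, chr12:107927969-107928485, went from 5.50, 5.91 and 2.35 to 0.334, 0.248 and 0.692. At Gata3 the region beside the promoter, chr2:9879179-9879905, had 22.6, 30.0 and 14.2 on day 4, 2.54, 4.93 and 2.89 on day 8, and 6.90, 4.79 and 6.56 on day 21. Ranked by the authors' −log10 p in place of fold, 0 members were higher on day 8. The share over all regions is not given for that ranking, so this 0 cannot be read against it.

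**Figure D4:**
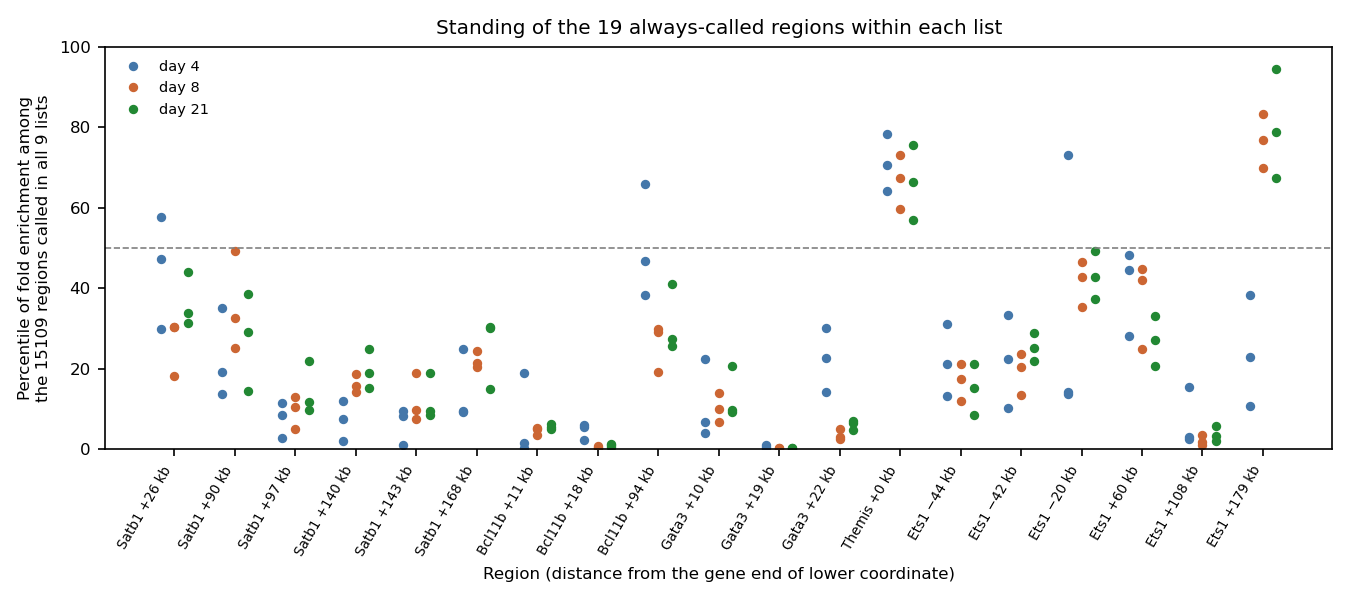
Percentile of each of the 19 constant member regions among the 15109 regions called in all 9 lists (vertical axis, 0 to 100), by region and its distance from the gene end of lower coordinate (horizontal axis); each point is 1 list, colored by day, and the dashed line marks 50. The Themis start site and, on days 8 and 21, the distal Ets1 region are the regions whose 3 lists of a day all lie above 50.

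Between day 8 and day 21 the loci changed little. In the limma fit 0 of 5 members passed, and 0.0% of the 7834 genes did. At an unadjusted p under 0.05 there were 708 genes and no member, and without the floor under the variance 2 genes passed after adjustment. The differences were -0.20 ± 0.16 for Bcl11b (adjusted p = 0.798), -0.05 for Ets1, 0.01 for Gata3, 0.04 for Themis and 0.13 for Satb1. No member region was gained (1.02% of all regions were), and 2 were lost (1.09% of all).

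Both lost regions were at Bcl11b, on the upstream side of the gene. One lay 2.03 kb beyond its end, chr12:108006175-108006577, with day 8 folds of 3.53, 3.56 and 3.54. The other lay 18.8 kb beyond, chr12:108022924-108023523, with 3.80, 3.59 and 4.38. They were weak peaks, and the only 2 members called in all 3 lists of day 8 and in no other list (1.08% of all regions were so called). No member was called in the 3 day 21 lists alone (0.983% of all). Besides the 2 lost regions, other Bcl11b regions were called in fewer or in more lists on day 21 than on day 8. The number per list went from 21 to 22 down to 18 to 19. This was a fall without overlap, which 4.21% of all loci also had, and it did not pass the fit.

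Among the 34555 regions called in all 6 lists of days 8 and 21, a finer ranking within each list was possible for 58 members. Of these, 8 ranked higher on day 21 with no overlap (10.3% of all such regions did) and 4 lower (10.9%). Of the 19 constant regions, ranked as above, 1 was higher (9.46% of all) and 0 lower (10.6%). The late Satb1 region at 21.8 kb went from percentiles of 31.5, 19.2 and 38.8 to 75.8, 46.6 and 61.2. A Bcl11b region 97.3 kb below the gene, chr12:107812592-107813120, went from 5.44, 0.818 and 1.72 to 26.2, 28.4 and 17.2. In the Ets1 body, chr9:32740743-32741393 went from 4.41, 5.65 and 5.45 to 18.0, 24.8 and 13.9.

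Lower ranks on day 21 came from each of 4 genes. The intragenic Themis region at chr10:28844196-28844488 went from 49.0, 26.2 and 37.0 to 12.1, 23.6 and 16.8. A Bcl11b body region, chr12:107982286-107982680, went from 40.6, 27.7 and 21.8 to 13.2, 3.49 and 11.8. The Gata3 promoter region went from 2.90, 11.3 and 3.37 to 1.3, 2.13 and 0.108, and an Ets1 region 46.0 kb below the gene, chr9:32589990-32590264, from 15.7, 27.3 and 17.4 to 4.25, 14.5 and 7.85.

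Day 21 against day 4 used the same day 4 lists as the comparison above, so its values are given beside those and add no separate evidence. Themis stood at 1.35 ± 0.18 (adjusted p = 0.000623), Bcl11b at 0.65 ± 0.16 (adjusted p = 0.01) and Gata3 at -0.71 ± 0.13 (adjusted p = 0.00221). The other two were at -0.10 ± 0.11 for Satb1 (adjusted p = 0.519) and 0.01 for Ets1 (adjusted p = 0.915). Thus 3 of 5 members passed, where 39.6% of all genes did. Gata3 had 62.5% of its regions called per day 4 list. Its bound on day 8 was -0.66 and the day 21 lists were of similar length, so it could again only come out below 0. Its call as lower was thus again set by its day 4 counts. There were 27 gained regions (25.3% of all regions were gained) and 0 lost (0.00794%). Themis gained 7 on this count, Ets1 7, Satb1 and Bcl11b 6 each and Gata3 1.

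The genes that work with these 5 were described from lists. Of 22 other regulators of the T lineage, 20 had enough regions. Between day 4 and day 8, 5 were higher and 5 lower relative to list length, where 15.6% and 24.5% of all loci were. Their median was -0.09 against -0.14 over all genes. Without division by list totals 18 were higher (83.4% of all loci were) and 0 lower, and among the strongest peaks none passed. With the 50% cover rule 8 were higher and 4 lower, where 13.4% and 31.1% of all loci were, with a median of 0.46 against -0.22 over all genes. The highest was Hes1, a Notch target, at 2.20 ± 0.38 (adjusted p = 0.00183), with 0, 1 and 0 of its 9 regions called on day 4, 8, 7 and 8 on day 8, and 5, 6 and 5 on day 21. With the strongest peaks alone Hes1 was at -0.62. The lowest was Tcf3, which encodes an E protein, at -1.14 ± 0.23 (adjusted p = 0.00329), with 2 of its 3 regions called on day 4 and 2 or 3 on day 8, and without division by list totals it was at 0.16.

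THEMIS works through partners near the T cell receptor. All 10 genes of that list had enough regions, with 2 higher, 4 lower and a median of -0.33, but 10 higher without division by list totals and none past the threshold among the strongest peaks. Over all loci 15.6% were higher and 24.5% lower, with a median of -0.14, and 83.4% were higher without division. With the 50% cover rule this list had 2 higher and 5 lower, where 13.4% and 31.1% of all loci were, and a median of -0.52. Lcp2, the adaptor SLP-76, was highest at 0.90 ± 0.27 (adjusted p = 0.0232), with 1, 3 and 3 of 15 regions called on day 4 and 12, 11 and 12 on day 8, and at -0.25 among the strongest peaks. Zap70, the kinase that docks on the activated receptor, was lowest at -0.82 ± 0.19 (adjusted p = 0.00645), with 2 of its 3 regions called in every day 4 list and 3 in every later list, and at 0.49 without division by list totals. Between day 8 and day 21 no gene of these lists passed.

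Paralogs of the members had few regions. Gata1, Gata2, Gata4 and Gata6 had 1 region each and Themis3 had 0, so these were not tested, and Gata5 had 3, Bcl11a 4, Themis2 5 and Ets2 16. Of these last 4, which were tested, none passed between day 4 and day 8 in limma, with a median of 0.33. Without division by list totals all 4 were higher, as were 83.4% of all loci, and with the 50% cover rule 1 was, as were 13.4% of all loci. Ets2 was at -0.31 ± 0.10 (adjusted p = 0.0282) on day 21 against day 4. Within the GATA family, the 8 regions at Gata3 stood against 1 to 3 at the 5 other genes looked at.

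Genes with the most similar course over the 9 lists were found by the Euclidean distance between the shares of regions called, among the 1292 other genes with at least 10 regions (1293 for Gata3, which itself has fewer). Nearest to Bcl11b were Coro1c (0.107) and Arid2 (0.133), to Ets1 Crybg1 (0.105) and Ptk2b (0.111), and to Themis Map4k4 (0.132) and Btbd9 (0.143). Ift57 (0.137) and Ube2e3 (0.144) were nearest to Satb1. Gata3 had the most distant neighbors, Smad7 (0.190) and Ier5 (0.207). All of these points share the same 9 lists and their lengths.

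Beyond 100 kb, further regions had a member as their nearest protein-coding gene and were not counted above. Gata3 lies beside a gene-poor stretch of 2460.74 kb that ends at Celf2, and 29 such regions reached up to 1183 kb from it, of which 6 ± 1 (mean ± SD, 3 lists) were called on day 4, 20.3 ± 1.15 on day 8 and 21.3 ± 0.577 on day 21. The region chr2:9519574-9520495, 336.6 kb from Gata3, was called in all 9 lists with a mean fold of 11.4 on day 21. Ets1 had 19 such regions, with 7 ± 1, 13.7 ± 0.577 and 15.7 ± 0.577 called. Satb1 had 18 (2.67 ± 0.577, 13.7 ± 1.53 and 15.7 ± 1.15), Bcl11b 17 (3 ± 1, 14.3 ± 1.15 and 14.3 ± 1.53), and Themis, with close neighbors on both sides, had 0. Which gene any of these distal regions acts on was not tested.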

How the data were processed

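Chromatin of sorted P14 cells was measured by ATAC-seq. Titles gave the day and replicate number, since the labels' tags for genotype and time point hold each other's values. The submitters' processing notes name the build mm10 and the tools MACS2, BWA 0.7.15, deepTools 2.0 and Picard, with no roles or settings. The authors deposited 1 list of called peaks per library, with a display score, a fold enrichment (a ratio to local background), −log10 of the p and q values, and the summit's offset. These deposited values served for ranks and filters inside each list, and the authors' fold enrichments are also printed as descriptions; between lists they are not on a common scale. All q values were at most 0.05.

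Peaks on chromosomes 1 to 19 and X (353295 of 353507) were merged where they shared at least 1 base. A region was called in a list when a peak shared at least 1 base with it. Gene bodies were those of 21627 protein-coding genes in RefSeq (GRCm38.p6, the assembly of mm10). A region inside gene bodies went to those genes, and any other to the nearest gene end. Coordinates are 1-based. In R 4.3.3, limma 3.58.1 with the trend and robust options fitted the number of regions per locus as log2((regions + 0.5) / relative list total), over genes with at least 3 regions, with day as the only term. Each gene's variance was held at or above that of 1 region called with probability 0.5. P-values were adjusted by Benjamini-Hochberg. The fit was also run on simulated lists. All of these were drawn from the call rates of the later day, with regions closed at some genes on the earlier day. Such lists are nearly equal in length, so the run does not test the fit under the difference in list length seen here. Python 3.11.15, pandas 2.3.3, numpy 2.4.6 and matplotlib 3.10.9 did the rest.

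Same-numbered lists of different days did not deviate together (9 pairs, Pearson correlations across loci of -0.0294 to 0.0611), so numbers were not treated as pairs. Named genes were the 5 members, the highest and lowest gene past the threshold in each list, and the 2 nearest by distance. The members and lists were chosen with earlier results of these data known. The ranking over 6 lists and the account beyond 100 kb were added after seeing the data. Alternatives covered the pseudocount, list totals, list length, q, overlap, distance, filter, variance floor, replicate block and each list left out. A gene of the lists is not reported here.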

Additional observations from a re-analysis of the deposited data

How the results depend on the processing

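Counts of regions are bounded by list length, and depth is unknown. Without division by list totals, 5 members passed on day 8 against day 4 and 5 on day 21 against day 4. With the strongest peaks alone, 0 passed in both, and 0 regions were gained on day 8 or day 21 against day 4. Gained regions on day 21 against day 8 were 1 with the strongest peaks and 1 with the 50% cover rule. Ranked by −log10 p, 0 member regions were higher on day 8, again with no share over all regions beside it.

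Without division, values turned positive for Satb1 (1.07 on day 8 and 1.19 on day 21, both against day 4) and Gata3 (0.58 and 0.58). With 50% cover they were 0.44 and 0.50 for Satb1 and 0.20 and 0.017 for Gata3, and on day 21 against day 8 Gata3 was at -0.18. With the strongest peaks they were -0.33 and -0.33 for Themis, -0.0828 and -0.0945 for Ets1, and -0.28 for Bcl11b on day 21 against day 4, and Gata3 on day 21 against day 8 was at -0.12. A pseudocount of 1 gave -0.0288 for Ets1 on day 21 against day 4.

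With each list left out in turn, 3 to 4 members passed on day 8 against day 4, 3 on day 21 against day 4 and 0 on day 21 against day 8. Gained regions were 30 to 34, 28 to 34 and 0 to 1, against 28, 27 and 0 with all lists. From 2 to 5 regions ranked higher on day 8, against 2 with all lists. With a list left out these rules ask for fewer lists and are easier to meet, so higher counts say nothing about the members. Shares over all regions are not given for these settings. The fourth member was Satb1, at -0.32 (adjusted p = 0.0490, limma) without day 4 replicate 2. Signs changed for differences near 0. On day 8 against day 4, Ets1 ran from -0.0199 (without day 4 replicate 1) to 0.1508. On day 21 against day 4 it ran from -0.066 (without day 4 replicate 1) to 0.1048, with -0.019 without day 21 replicate 1. On day 21 against day 8, Gata3 ran from -0.0405 (without day 21 replicate 1) to 0.0631, with -0.0358 without day 8 replicate 2, and Themis from -0.0603 (without day 21 replicate 2) to 0.1152.

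Over all loci, 1221 were higher and 1917 lower on day 8 against day 4. These counts were 6535 and 0 without division, 2 and 9 with the strongest peaks, 749 and 3149 with a pseudocount of 1, 673 and 617 with at least 6 regions per gene, 1349 and 6042 with no filter, and 1048 and 2438 with 50% cover. The median of all genes moved from -0.14 to 1.17 without division. A replicate block left 3, 0 and 3 members past the threshold on day 8 against day 4, day 21 against day 8 and day 21 against day 4. The cause of these changes was not tested.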
